A study of Mus musculus with 10 samples.

Results

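The data concern YAP and TAZ, the transcriptional coactivators of the Hippo pathway, together with their DNA-binding partner and genes that they switch on. The set held 10 genes, Yap1, Wwtr1 (which encodes TAZ), Tead1, Lats2, Amotl2, Ankrd1, Cyr61 (now named Ccn1), Ctgf (now named Ccn2), Nuak2 and Birc5, of 18193 genes on the array. They were read by 23 of 45037 probe sets. The genes were listed by their place in the pathway, with earlier results of these data known. Every probe set annotated to 1 of them alone was used. The probe set of highest mean signal over the 10 arrays stood for its gene, and 6 of the 10 genes had more than 1.

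Tg-neu females, of the strain FVB/N-Tg(MMTVneu), carry the neu (Erbb2) gene behind the promoter of the mouse mammary tumor virus and develop mammary tumors spontaneously. From the first palpable tumor, mice received lovastatin (Lov), an inhibitor of HMG-CoA reductase, at 10 mg/kg intraperitoneally 3 times per week for 6 weeks, or vehicle (Vhcl), which was ethanol. RNA of 5 tumors from the Lov group (A19, A48, A50, A55, AB10) and 5 from the Vhcl group (A45, A49, A54, A59, AB11) had been hybridized to 1 Affymetrix mouse array each. A free-text label calls the control tumors untreated, and no label ties a tumor to a mouse of its own, so p-values measure the spread between these tumors.

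YAP and TAZ do not bind DNA themselves and act on genes through the TEAD factors. The Hippo kinases LATS1 and LATS2 phosphorylate both and hold them in the cytoplasm, whereas tension in the actin skeleton lets them enter the nucleus. In cultured human cells statins, which limit the synthesis of mevalonate, keep YAP and TAZ out of the nucleus. An array reads RNA and reads neither the phosphorylation nor the place of the proteins, so the RNA of the target genes is the readout here.

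Promoter sequences are shown first because they hold the letters that TEAD factors recognize. RefSeq promoter windows of 300 bases (250 before to 50 after the gene start, mouse build GRCm38.p6) were matched to 7 of the 10 genes, 9 windows in all, since Wwtr1 and Lats2 each had a pair. The TEAD core GGAATG was searched on both strands, where CATTCC is the same core on the other strand. In the sequences that follow, capitals mark the core, and each runs 5′ to 3′ on the strand of the gene up to the base before its start. Cyr61 (chr3:145649986-145650235, minus strand), Ankrd1 (chr19:36119845-36120094, minus strand) and Yap1 (chr9:8004597-8004846, minus strand) are given with 250 bases and Amotl2 (chr9:102717704-102717803, plus strand) with the part nearest its start, the targets because the core stands close to their start and Yap1 because it is the coactivator itself.
Cyr61: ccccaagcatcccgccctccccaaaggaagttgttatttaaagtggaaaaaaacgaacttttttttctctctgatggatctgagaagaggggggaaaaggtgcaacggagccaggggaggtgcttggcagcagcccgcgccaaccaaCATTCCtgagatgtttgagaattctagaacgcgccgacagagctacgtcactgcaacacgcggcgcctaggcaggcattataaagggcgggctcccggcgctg
Ankrd1: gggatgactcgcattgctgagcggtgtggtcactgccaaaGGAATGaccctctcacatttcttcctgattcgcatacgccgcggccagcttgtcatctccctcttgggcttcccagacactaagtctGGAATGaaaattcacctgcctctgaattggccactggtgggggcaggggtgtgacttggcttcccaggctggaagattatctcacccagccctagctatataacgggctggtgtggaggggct
Yap1: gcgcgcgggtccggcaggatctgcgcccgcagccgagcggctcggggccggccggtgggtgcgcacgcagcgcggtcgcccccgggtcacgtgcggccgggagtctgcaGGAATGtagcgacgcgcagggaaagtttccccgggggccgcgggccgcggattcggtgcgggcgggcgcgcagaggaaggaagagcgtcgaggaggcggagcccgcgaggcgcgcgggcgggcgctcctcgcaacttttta
Amotl2: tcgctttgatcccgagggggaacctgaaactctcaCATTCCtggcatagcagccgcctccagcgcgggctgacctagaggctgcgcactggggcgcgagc

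At least 1 core stood in the windows of 6 of the 7 genes. Of all 32851 promoter windows of this length, 14.7% held one. Ankrd1 held 2, with first bases at -210 and -123 from the gene start, as 1.36% of all windows did. The core began at -103 in Cyr61 and at -65 in Amotl2, both on the other strand, and at -141 in Yap1. Both Wwtr1 windows overlap and share a core, at -136 or -170 depending on which start is used, and the first Lats2 window held one at 5 bases into the transcript. Birc5 and the second Lats2 window held none. The CArG box, the site of serum response factor, was in 0 of the 7 genes and in 1.63% of all windows. A match is a stretch of letters and not a measured binding site.

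**Figure D1:**
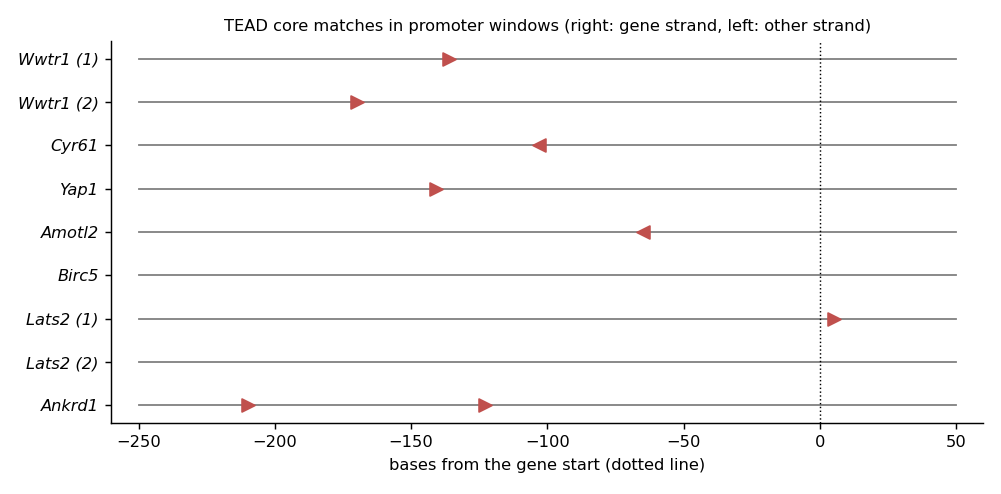
Position of the TEAD core in 9 RefSeq promoter windows (x axis, bases from the gene start; 1 line per window, with 2 windows for Wwtr1 and Lats2); arrowheads give the strand. The core lies within 250 bases before the start in Wwtr1, Cyr61, Yap1, Amotl2 and Ankrd1, after it in the first Lats2 window, and in neither the Birc5 nor the second Lats2 window.

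Values are log2 signals as deposited, so a difference of 1 is 2-fold, and levels of different probe sets are not set against each other. The array medians lay between 4.97 and 5.05 and the median signal over all probe sets was 5.02. Epithelial signal was read from Krt8 (11.60 to 11.98 in Lov-treated tumors, against 11.78 to 12.23 in Vhcl-treated tumors) and Epcam (12.11 to 12.61 with Lov, against 12.18 to 12.57 with Vhcl). Erbb2 itself was at 7.76 to 8.18 with Lov, against 7.82 to 8.44 with Vhcl. These genes were all far above the median of all probe sets in every tumor. Krt19, of the same list of 8 epithelial markers, was dim at 4.67 to 4.95 in Lov-treated tumors, against 4.27 to 8.24 in Vhcl-treated tumors, and the other 7 were above the median in every tumor. Each array measured a whole tumor, where fewer cells of a type and less RNA per cell cannot be told apart. The skeletal muscle genes Acta1 and Ckm stood high in Lov A55 (10.26 and 8.24) and in Vhcl A54 and A59 (10.44 and 10.57 for Acta1, 8.22 and 8.13 for Ckm). The salivary gland score was highest in Vhcl AB11 (2.01) and next in Vhcl A59 (0.73), against -0.73 to 0.20 with Lov. Of its genes, Amy1, Bpifa2 and Smr3a stood at 13.34, 13.73 and 13.56 in Vhcl AB11. In Lov-treated tumors they reached at most 4.69, 6.82 and 4.36. Prol1, of the same list, was highest in Vhcl A49. The part of salivary gland RNA in the differences between the groups was not tested.

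Of the 10 genes, Cyr61 alone passed an unadjusted p under 0.05 by limma, with a lower signal in Lov-treated tumors. That threshold was passed by 5.28% of all probe sets, and by 2.16% with a lower signal. Of the 10 differences, 3 were positive and 7 negative, with a median of -0.18, while 52.7% of all probe sets had a positive difference and the median over all of them was 0.01. At 2-fold with an unadjusted p under 0.02, 0 of the 10 passed by limma (0.258% of all probe sets), and no gene had groups that did not overlap (0.602% of all probe sets). By limma 0 of all probe sets passed an FDR of 0.05 (lowest adjusted p = 0.369), with 2379 at an unadjusted p under 0.05, and without moderation of the variance 0 passed, with 2066 at an unadjusted p under 0.05. The lowest adjusted p among the 10 genes was 0.919. The count of 1 became 2 without Lov A19, Lov A50 or Vhcl A54 (Birc5 added), without Vhcl A49 (Tead1 added) and without Vhcl A59 (Amotl2 added).

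**Figure D2:**
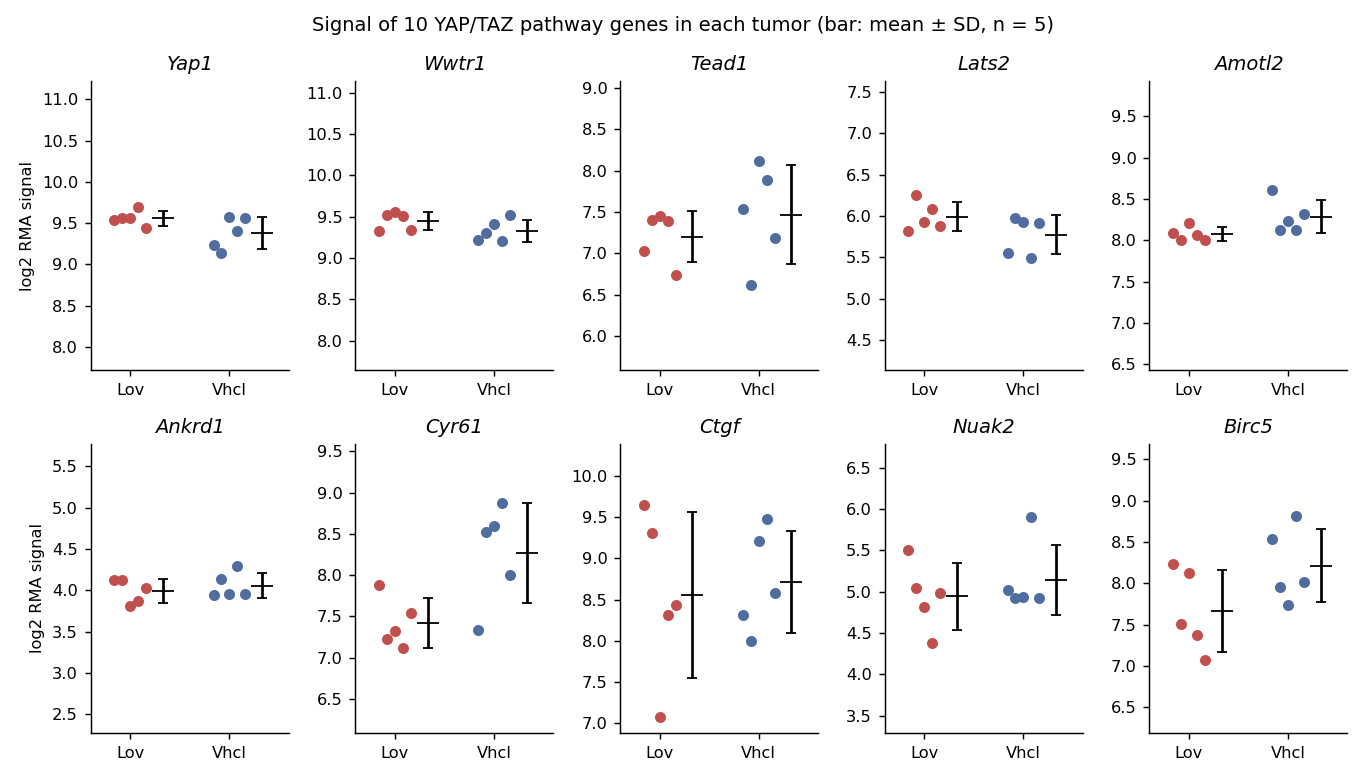
Log2 signal (y axis, every panel spanning the same number of units) of the 10 genes in 5 Lov-treated and 5 Vhcl-treated tumors; points are tumors, and bars the group mean ± SD. Cyr61 lies at 7.12 to 7.88 with Lov and at 8.00 to 8.87 in 4 Vhcl-treated tumors, with the other at 7.34, while Yap1 and Wwtr1 stay within 0.55 and 0.36 over all 10 tumors.

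By their brightest probe sets, both coactivators varied little from tumor to tumor. Yap1 had 9.54, 9.56, 9.56, 9.69 and 9.44 in Lov A19, A48, A50, A55 and AB10, against 9.24, 9.14, 9.57, 9.40 and 9.56 in Vhcl A45, A49, A54, A59 and AB11. The Lov-treated tumors lay within the upper part of the Vhcl range or just above it, and the means were 9.56 ± 0.09 with Lov and 9.38 ± 0.19 with Vhcl (SD, n = 5 each). The difference of 0.18 (standard error 0.11, 95% confidence interval -0.05 to 0.41) did not pass an unadjusted p of 0.05 (limma, unadjusted p = 0.121, adjusted p = 0.971; exact permutation test, 2-sided p = 0.127). The interval does not reach a 2-fold change in either direction. The other Yap1 probe set had a difference of 0.09, and its correlation with the first over the 10 tumors was 0.03.

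TAZ, the paralog of YAP, is encoded by Wwtr1. Its signal was 9.33, 9.52, 9.56, 9.51 and 9.34 in Lov A19, A48, A50, A55 and AB10, against 9.22, 9.30, 9.41, 9.20 and 9.52 in Vhcl A45, A49, A54, A59 and AB11. The groups overlapped, with means of 9.45 ± 0.11 with Lov and 9.33 ± 0.13 with Vhcl (SD, n = 5 each). The difference was 0.12 (standard error 0.10, interval -0.09 to 0.33; limma, adjusted p = 0.983). The remaining pair of Wwtr1 probe sets gave 0.02 and -0.05, and in both Lov AB10 was the lowest tumor (7.68 and 6.43). These spanned 1.27 and 1.42 over the tumors, far more than the brightest one. Within the groups, 80.1% of genes varied more than Yap1 and 90.2% more than Wwtr1 by the brightest probe sets, against 13.7% and 8.43% by the other Wwtr1 probe sets.

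Yap1 and Wwtr1 signals were positively correlated over the 10 tumors (Pearson r = 0.73, permutation p = 0.013, adjusted p = 0.0519 over 12 relations; Spearman coefficient = 0.74, permutation p = 0.0166, adjusted p = 0.0994). Without Vhcl A45 and A49, the tumors farthest from the Yap1 median, r was 0.76, and after each group's mean was subtracted it was 0.64 (permutation p = 0.0518). The relation thus kept its sign in both checks but did not pass the adjustment. It was computed by the brightest probe sets alone. The other Yap1 probe set had r = 0.03 with the brightest of Yap1, and the other Wwtr1 probe sets had 0.42 and 0.29 with the brightest of Wwtr1.

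TEAD1 is the factor through which YAP and TAZ reach DNA. The Tead1 signal was 7.03, 7.40, 7.45, 7.39 and 6.74 in Lov A19, A48, A50, A55 and AB10, against 7.53, 6.61, 8.12, 7.89 and 7.18 in Vhcl A45, A49, A54, A59 and AB11. The Vhcl-treated tumors held both the highest and the lowest value and enclosed all 5 Lov-treated tumors. Means were 7.20 ± 0.31 with Lov and 7.47 ± 0.60 with Vhcl (SD, n = 5 each), a difference of -0.26 (standard error 0.26, interval -0.83 to 0.30; limma, adjusted p = 0.988). A dim second probe set (mean 3.42) gave 0.05, and the first gave -0.10 without Vhcl A54 and -0.48 without Vhcl A49. Tead1 had no relation that passed the adjustment, either to Yap1 (r = 0.34, permutation adjusted p = 0.438; Spearman coefficient = 0.29, adjusted p = 0.565; r = 0.05 without Vhcl A45 and A49, and 0.64 after subtraction of group means, permutation p = 0.0469) or to Wwtr1 (r = 0.01, permutation adjusted p = 0.98; Spearman coefficient = -0.03, adjusted p = 0.938; r = 0.24 without Lov A50 and Vhcl A59).

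LATS2 and AMOTL2 restrain YAP, and their genes are also switched on by it, which closes a negative feedback loop. LATS2 is the kinase. Its signal was 5.82, 6.25, 5.93, 6.09 and 5.88 in Lov A19, A48, A50, A55 and AB10, against 5.55, 5.98, 5.93, 5.49 and 5.92 in Vhcl A45, A49, A54, A59 and AB11. Only Vhcl A45 and A59 lay below all Lov-treated tumors. The Lats2 means were 5.99 ± 0.17 with Lov and 5.77 ± 0.23 with Vhcl (SD, n = 5 each), with a difference of 0.22 (standard error 0.13, interval -0.06 to 0.50; limma, adjusted p = 0.971; exact permutation test, 2-sided p = 0.167). Of the 6 Lats2 probe sets 2 gave a negative difference. The dimmer ones had correlations of -0.51 to 0.35 with the brightest, so none followed it closely. Their mean signals, 3.54 to 5.14, lay mostly below the median of 5.02 over all probe sets.

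AMOTL2, of the angiomotin family, binds YAP at cell junctions. Amotl2 had 8.09, 8.01, 8.21, 8.06 and 8.00 in Lov A19, A48, A50, A55 and AB10, against 8.61, 8.13, 8.24, 8.12 and 8.32 in Vhcl A45, A49, A54, A59 and AB11. The 4 Lov-treated tumors other than A50 lay below every Vhcl-treated tumor. Means were 8.07 ± 0.08 with Lov and 8.28 ± 0.20 with Vhcl (SD, n = 5 each), and the difference of -0.21 (standard error 0.11, interval -0.44 to 0.02) had an unadjusted limma p of 0.0742 (adjusted p = 0.966) and, for Amotl2 taken alone, a 2-sided p of 0.0397 by the exact permutation test. Both p-values are close to 0.05 and lie on either side of it, and the size corresponds to a 1.16-fold lower mean. Without Vhcl A45 alone the Amotl2 difference was -0.13 (limma, unadjusted p = 0.187). Over the tumors, Lats2 and Amotl2 had r = -0.53 (permutation p = 0.121, adjusted p = 0.243; Spearman coefficient = -0.29, permutation p = 0.411, adjusted p = 0.565; r = -0.38 without Vhcl A45 and A59).

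Cyr61 had the largest difference of the 10 genes. It encodes a secreted matricellular protein that binds integrins and is a direct target of YAP and TAZ in many cell types. The signal was 7.88, 7.23, 7.32, 7.12 and 7.54 in Lov A19, A48, A50, A55 and AB10, against 7.34, 8.52, 8.59, 8.87 and 8.00 in Vhcl A45, A49, A54, A59 and AB11. Of the Vhcl-treated tumors 4 lay above all Lov-treated tumors, while Vhcl A45 lay in the middle of the Lov range. Means were 7.42 ± 0.30 with Lov and 8.26 ± 0.60 with Vhcl (SD, n = 5 each), a 1.80-fold lower mean with Lov (log2 difference -0.85, standard error 0.26, 95% confidence interval -1.42 to -0.28). This exceeded the spread within the groups for Cyr61 taken alone (exact permutation test, 2-sided p = 0.0317; limma, unadjusted p = 0.00725) but did not pass over all probe sets (limma, adjusted p = 0.919).

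Cyr61 was read by 4 probe sets, and all 4 gave a negative difference. The second brightest had 6.87, 6.52, 6.60, 6.29 and 6.26 in Lov A19, A48, A50, A55 and AB10, against 6.58, 7.78, 7.62, 8.09 and 7.16 in Vhcl A45, A49, A54, A59 and AB11. Again only Vhcl A45 fell among the Lov-treated tumors, and the difference was -0.94 (limma, unadjusted p = 0.00274; exact permutation test, 2-sided p = 0.0238). The other two gave -0.59 (limma, unadjusted p = 0.182; exact permutation test, 2-sided p = 0.246) and -0.74 (limma, unadjusted p = 0.079; exact permutation test, 2-sided p = 0.143), with Vhcl AB11 (5.11 and 5.32) as low as Lov A55 and AB10 (5.38 and 5.32 by the first, 5.49 and 5.30 by the second). Probe sets of 1 gene read the same RNA and are not replicates.

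**Figure D3:**
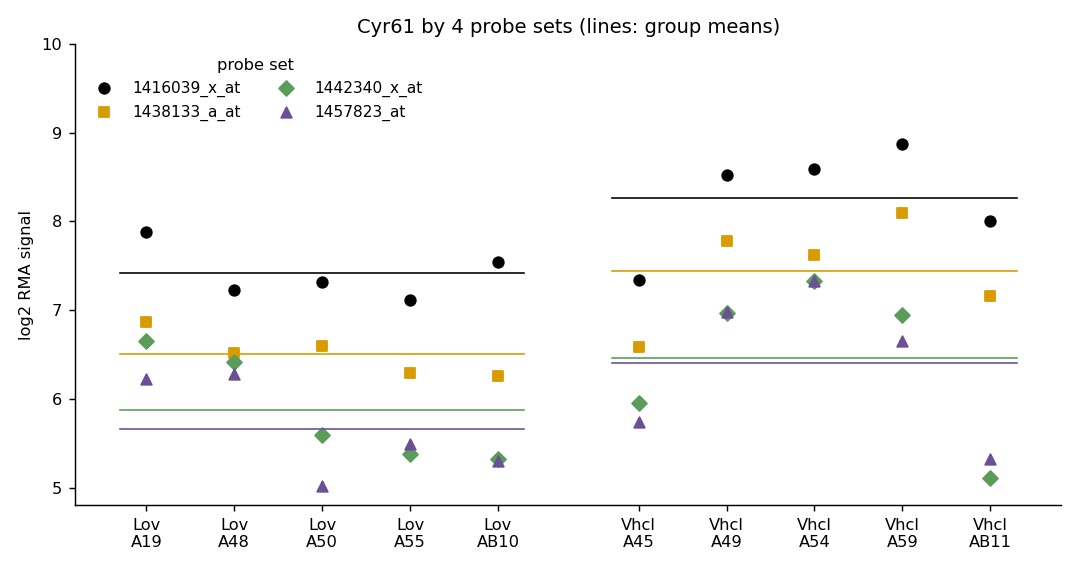
Log2 signal (y axis) of Cyr61 by each of its 4 probe sets in the 5 Lov-treated (left) and 5 Vhcl-treated (right) tumors; symbols are probe sets and lines their group means. By the brightest, the Lov-treated tumors lie at 7.12 to 7.88 and Vhcl A45 at 7.34, while the other Vhcl-treated tumors lie at 8.00 or higher; differences run from -0.94 to -0.59 over the 4 probe sets.

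The sign of the Cyr61 difference was the same under all 22 alternatives run, and each of them that gave a p kept it under 0.05 unadjusted. Its probe sets dimmer than the second brightest, given above, entered these alternatives only through the mean of all probe sets. Leaving out 1 tumor moved the difference between -1.08 (without Vhcl A45) and -0.69 (without Vhcl A59). The beta-actin 3' minus 5' signal, a sign of RNA integrity, was 0.67 to 1.07 in Lov-treated tumors and 0.80 to 1.35 in Vhcl-treated tumors. With it as a covariate the Cyr61 difference was -0.55 (limma, unadjusted p = 0.0238). Cyr61 and the 7 endothelial markers had r = 0.41 over the tumors (permutation p = 0.251, adjusted p = 0.399; Spearman coefficient = 0.58, permutation p = 0.0897, adjusted p = 0.179; r = 0.52 without Vhcl A54 and A59), and 0.68 after subtraction of group means (permutation p = 0.0325). None of those 7 markers passed an unadjusted p under 0.05 by limma (median difference 0.07), with list scores, the mean of signals standardized over the tumors, of -0.82 to 1.48 in Lov-treated and -0.83 to 0.32 in Vhcl-treated tumors. The part of endothelial cells in the Cyr61 level was not tested.

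**Figure D4:**
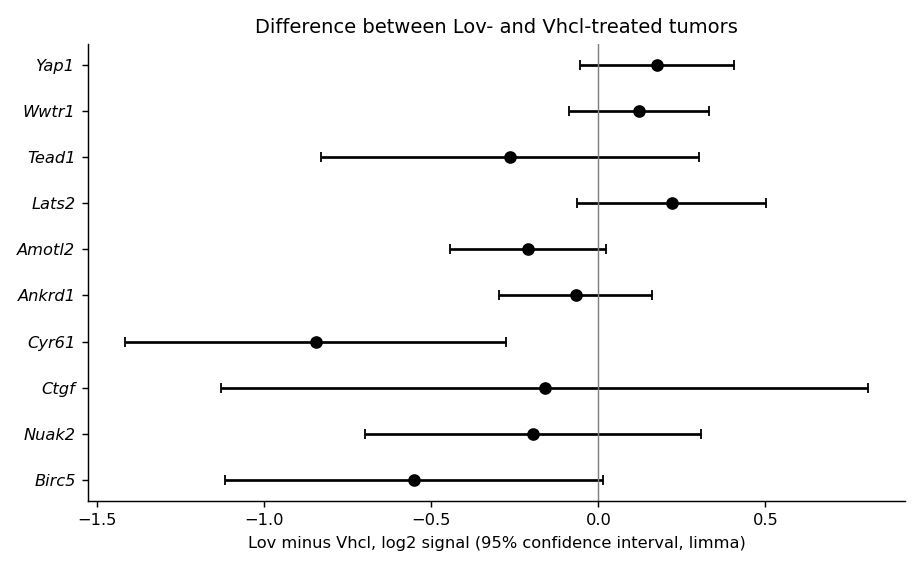
Lov minus Vhcl difference in log2 signal (x axis) of each of the 10 genes, with its 95% confidence interval from limma. Cyr61, at -0.85, has an interval of -1.42 to -0.28 below 0, and the intervals of the other 9 genes include 0, the widest being that of Ctgf (-1.13 to 0.81).

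Ctgf encodes the connective tissue growth factor, a secreted relative of Cyr61 made abundantly by fibroblasts and the other target most often used as a readout of YAP. It had 9.65, 9.31, 7.08, 8.31 and 8.43 in Lov A19, A48, A50, A55 and AB10, against 8.31, 8.00, 9.21, 9.48 and 8.58 in Vhcl A45, A49, A54, A59 and AB11. Lov-treated tumors held both the highest and the lowest value, with a span of 2.57 over the 10 tumors. Means were 8.56 ± 1.0025 with Lov and 8.72 ± 0.62 with Vhcl (SD, n = 5 each), and the difference of -0.16 (standard error 0.44, interval -1.13 to 0.81; limma, adjusted p = 0.995; exact permutation test, 2-sided p = 0.817) was much smaller than the spread. Only 1.44% of genes varied more within the groups than Ctgf, against 6.69% for Cyr61, 6.80% for Tead1 and 6.87% for Birc5. Its sign turned without Lov A50 (0.21), without Vhcl A59 (0.03) and with the beta-actin covariate (0.33). A change by 2-fold lower could not be told from none at this spread, and whether Ctgf and Cyr61 responded differently was not tested.

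The tumor with the least Ctgf also had the lowest fibroblast score. In Lov A50, which had the lowest Ctgf, the matrix genes Col1a1 (6.97) and Dcn (4.02) were lower than in any other tumor, where they lay between 7.19 and 9.65 for Col1a1 and between 6.71 and 8.54 for Dcn. Col1a2, Col3a1, Lum and Postn were also lowest there, whereas the fibroblast markers Pdgfra (5.98) and Fbln1 (5.66) were not. Pdgfra was lowest in Vhcl A45 (5.42) and Fbln1 in Vhcl A59 (5.56). The mean standardized score of 8 fibroblast markers was -1.63 in Lov A50. It was -0.53 to 0.89 in the other Lov-treated tumors and -0.34 to 0.67 in Vhcl-treated tumors. Ctgf and this score had r = 0.77 (permutation p = 0.00891, adjusted p = 0.0519 over 12 relations) and Spearman coefficient = 0.60 (permutation p = 0.072, adjusted p = 0.179). Without Lov A19 and A50 r was 0.53 (permutation p = 0.176), and after subtraction of group means it was 0.77 (permutation p = 0.00858), so the relation no longer passed an unadjusted p of 0.05 without those tumors. Of the 8 fibroblast markers 6 had a negative difference and 0 passed an unadjusted p under 0.05 by limma (median -0.46), and their part in the Ctgf level was not tested.

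Ankrd1 encodes a nuclear ankyrin repeat protein that responds to mechanical load and is strongly switched on by YAP in cultured cells. Its signal was 4.12, 4.12, 3.81, 3.87 and 4.03 in Lov A19, A48, A50, A55 and AB10, against 3.94, 4.14, 3.96, 4.29 and 3.96 in Vhcl A45, A49, A54, A59 and AB11. All 10 values lay below the median signal of the array, and 69.1% of probe sets were brighter. With means of 3.99 ± 0.14 with Lov and 4.06 ± 0.15 with Vhcl (SD, n = 5 each), the difference was -0.07 (standard error 0.10, interval -0.30 to 0.16; limma, adjusted p = 0.989). RMA compresses changes at signals this dim. Striated muscle also makes ANKRD1, and over the tumors Ankrd1 and the 9 skeletal muscle markers had little relation (r = 0.08, permutation adjusted p = 0.893; Spearman coefficient = 0.07, adjusted p = 0.92), and without Lov A50 and Vhcl A59 r was -0.70 (permutation p = 0.0584).

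Among Ctgf, Cyr61 and Ankrd1 the correlations were positive. Ctgf and Ankrd1 had r = 0.67 (permutation p = 0.0332, adjusted p = 0.0995; Spearman coefficient = 0.58, permutation p = 0.0818, adjusted p = 0.179), which was 0.48 without Lov A19 and A50. For Cyr61 and Ankrd1 r was 0.61 (permutation p = 0.0643, adjusted p = 0.154; Spearman coefficient = 0.59, permutation p = 0.0784, adjusted p = 0.179; r = 0.56 without Vhcl A54 and A59), and for Ctgf and Cyr61 it was 0.39 (permutation p = 0.266, adjusted p = 0.399; Spearman coefficient = 0.36, permutation p = 0.301, adjusted p = 0.515; r = 0.33 without Lov A19 and A50). None passed the adjustment over the 12 relations. Among all pairs of the 10 genes, described without a test, the highest r were those of Ankrd1 with Nuak2 (0.81) and Wwtr1 with Lats2 (0.79), and the lowest that of Lats2 with Birc5 (-0.76).

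NUAK2 is a kinase related to AMPK whose gene is a YAP target. Nuak2 had 5.50, 5.04, 4.81, 4.38 and 4.99 in Lov A19, A48, A50, A55 and AB10, against 5.02, 4.92, 4.94, 5.90 and 4.92 in Vhcl A45, A49, A54, A59 and AB11. The groups overlapped, and Vhcl A59 stood apart from the other Vhcl-treated tumors. The difference was -0.20 (standard error 0.23, interval -0.70 to 0.31; limma, adjusted p = 0.988; exact permutation test, 2-sided p = 0.484), with means of 4.94 ± 0.41 with Lov and 5.14 ± 0.43 with Vhcl (SD, n = 5 each). It was -0.006 without Vhcl A59, -0.055 without Lov A55 and -0.34 without Lov A19.

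Birc5 encodes survivin, a subunit of the chromosomal passenger complex and an inhibitor of apoptosis, transcribed in dividing cells. The signal was 8.23, 7.51, 8.13, 7.38 and 7.07 in Lov A19, A48, A50, A55 and AB10, against 8.54, 7.96, 7.74, 8.82 and 8.02 in Vhcl A45, A49, A54, A59 and AB11. Lov A48, A55 and AB10 lay below every Vhcl-treated tumor, and Lov A19 and A50 lay among them. Means were 7.66 ± 0.50 with Lov and 8.22 ± 0.45 with Vhcl (SD, n = 5 each), a difference of -0.55 (standard error 0.26, interval -1.12 to 0.01) that was just short of an unadjusted p of 0.05 (limma, unadjusted p = 0.0547, adjusted p = 0.947; exact permutation test, 2-sided p = 0.111). It passed that threshold in 6 alternatives, each by limma, and had the same sign in all 21 run.

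Birc5 followed the other genes of mitosis closely. The score of 12 such genes (13 listed), among them the kinases Aurkb and Plk1, had r = 0.98 with Birc5 (permutation p = 1e-05, the smallest these resamples can give, adjusted p = 0.00012 over 12 relations) and Spearman coefficient = 0.98 (permutation p = 3e-05, adjusted p = 0.00036). Without Lov AB10 and Vhcl A59 r was 0.95 (permutation p = 0.000471), and after subtraction of group means it was 0.98. All 12 had a negative difference (median -0.32, with Cdca8 at -0.01), beside 52.7% positive over all probe sets. The 12 were read in the same tumors, so they are not independent of each other. At an unadjusted p under 0.05 by limma 2 were lower, beside 2.16% of all probe sets. These were the proliferation marker Mki67 (-0.63, standard error 0.25) and the topoisomerase Top2a (-0.43, standard error 0.19). The score itself was -1.21 to 0.45 with Lov and -0.39 to 1.54 with Vhcl and did not differ beyond the spread (exact permutation test, 2-sided p = 0.19).

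**Figure D5:**
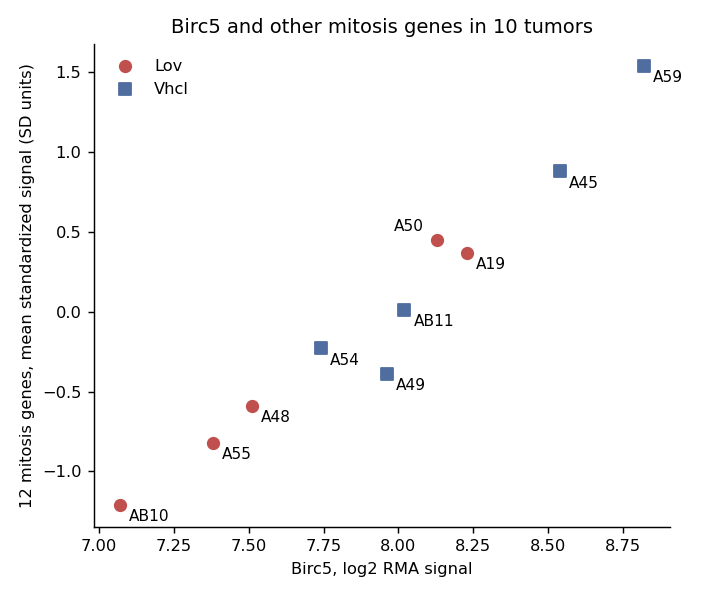
Birc5 log2 signal (x axis) against the mean standardized signal of 12 other mitosis genes (y axis, SD units) in 5 Lov-treated (circles) and 5 Vhcl-treated (squares) tumors. The tumors lie along one line (r = 0.98), with Lov AB10 lowest and Vhcl A59 highest on both axes.

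Upstream of YAP and TAZ, 20 of 21 listed genes of the Hippo kinase cascade and its regulators were measured. By limma 2 were higher and 0 lower at an unadjusted p under 0.05, beside the 5.28% of all probe sets past that threshold. The median difference was 0.07, with 13 positive and 7 negative, beside 52.7% positive over all probe sets. The kinases and adaptors Stk4, Sav1, Lats1 and Mob1a, named after their values were seen, had differences of -0.06, -0.02, 0.02 and -0.02. Others of the list lay further from 0, among them Wwc2 (0.22), Taok3 (0.20) and Ajuba (-0.24). The phosphatase gene Ptpn14, whose product binds YAP, had 7.00, 7.56, 7.61, 8.24 and 7.98 in Lov A19, A48, A50, A55 and AB10, against 5.80, 5.97, 7.32, 5.93 and 7.63 in Vhcl A45, A49, A54, A59 and AB11. Vhcl A54 and AB11 lay within the Lov range and the other 3 far below it, for a difference of 1.15 (standard error 0.37; limma, adjusted p = 0.919; exact permutation test, 2-sided p = 0.0556). Ptpn14 also stands in a list that the study chose on these tumors, so its direction is not independent evidence.

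Amot, the founding angiomotin, had 8.22, 8.57, 8.42, 8.56 and 8.46 in Lov A19, A48, A50, A55 and AB10, against 7.71, 7.30, 8.17, 7.77 and 8.47 in Vhcl A45, A49, A54, A59 and AB11. Every Lov-treated tumor lay above 4 of the Vhcl-treated tumors, with Vhcl AB11 among the Lov-treated ones. The difference of 0.56 (standard error 0.19) ran opposite in sign to that of its relative Amotl2 (limma, adjusted p = 0.919; exact permutation test, 2-sided p = 0.0397), and whether they differ from each other was not tested. Among 7 other TEAD factors and VGLL cofactors 0 passed an unadjusted p under 0.05 by limma (median 0.01), with Tead4 at 0.20 and Vgll3 at -0.41. Of these 7 genes, 3 had a mean below the median signal of 5.02, Tead4 and Vgll3 among them.

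A further 20 YAP and TAZ target genes of 21 listed, among them Ptpn14, Ajuba and Amotl1, which stand in the Hippo list too, had differences in both directions. At an unadjusted p under 0.05 by limma 3 were higher and 1 lower, beside the 5.28% of all probe sets past that threshold, and 13 differences were positive and 7 negative, beside 52.7% positive over all probe sets, with a median of 0.04. The lower one was Gadd45a, a stress-induced gene of growth arrest, with 6.06, 6.05, 5.59, 5.83 and 4.75 in Lov A19, A48, A50, A55 and AB10, against 6.46, 6.46, 7.05, 6.41 and 6.15 in Vhcl A45, A49, A54, A59 and AB11. All 5 Lov-treated tumors lay below all Vhcl-treated tumors, by a narrow margin for Lov A19 and Vhcl AB11 (difference -0.85, standard error 0.25; limma, adjusted p = 0.919; exact permutation test, 2-sided p = 0.00794, the smallest this design can give). Of all probe sets, 0.602% likewise had groups that did not overlap, and Gadd45a was the only gene of this list that did. The higher ones were Ptpn14, Dock5, an exchange factor for Rac (0.38; exact permutation test, 2-sided p = 0.0238), and Edn1, the precursor of endothelin (0.41; exact permutation test, 2-sided p = 0.119).

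The actin-regulated targets of serum response factor, which YAP signaling often accompanies, had no member past an unadjusted p of 0.05 by limma among 12 (median -0.06). Those of lowest p were the actins Actg2 (-0.22) and Acta2 (-0.26). Of 9 measured genes that cells switch on when they lack sterol (12 listed) 0 passed (median -0.02), with the sterol sensor Insig1 at 0.57 and the transcription factor Srebf2 at 0.24.

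The genes most like a given member over the 10 tumors were named from 11521 genes with a signal above the median (11522 for Ankrd1, which is itself below it), as a description with no test. Nearest to Cyr61 were the chemokine Ccl12 (r = 0.95), the oligoadenylate synthetase Oas1a (0.95) and the microtubule-binding Map1s (0.94). Nearest to Ctgf were Heatr1, Lyz1 and Cd248, each at r = 0.92. For Yap1 they were Sox6, Col9a2 and Abi2, each at 0.96, and for Ankrd1 they were Lpar1 (0.89), Emilin2 (0.89) and Col5a1 (0.88). Birc5 was closest to the spindle checkpoint kinase Bub1b, which is one of the 12 mitosis genes, the kinetochore gene Dsn1 and the centriole kinase Plk4, each at 0.97.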

How the data were processed

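RNA of 10 whole tumors had been read on 1 Affymetrix array each. The authors deposited log2 signals made by Robust Multi-array Analysis (RMA), and the submitters' processing notes name affy (version not given in the sources used here). RMA fits all arrays together, without mismatch probes, and compresses low signals. The values carry 2 decimals and were used as deposited. The arrays have no sequencing depth, so their number limits the precision.

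Lov was compared with Vhcl by limma 3.58.1 in R 4.3.3 (lmFit and eBayes with default settings, prior degrees of freedom 3.61), 2-sided, with Benjamini-Hochberg adjustment over 45037 probe sets after 64 control probe sets were left out. Of these, 34945 carried 1 gene symbol, 932 several and 9160 none, and symbols were updated with the RefSeq gene table of GRCm38.p6, used for names and promoters alone. Exact permutation tests enumerated every assignment of 5 tumors to Lov. Correlations used 100000 resamples. The procedure was tested on simulated data.

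The 10 genes, the 7 pathway lists and the 9 cell type lists were chosen with earlier results of these data known, and 1 pathway list is not reported here. From each pathway list the text names up to 4 genes past an unadjusted p of 0.05, or else the 2 of lowest p. It also names a few others chosen after their values were seen (Stk4, Sav1, Lats1, Mob1a, Wwc2, Taok3 and Ajuba). The genes most like a member are the 3 of highest Pearson r. Alternatives were another prior, array weights, a t-test without moderation, rescaling, the tumor ID prefix or the beta-actin signal as a covariate, other probe sets, a filter on dim ones, and leaving out tumors.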

Additional observations from a re-analysis of the deposited data

Results flagged for a closer look

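Nuak2 was at 5.90 on the log2 scale in Vhcl A59, while the other 4 Vhcl-treated tumors lay between 4.92 and 5.02. The gap was 0.898 of the group's range by Dixon's test. It was 1 of 20 groups of tumors tested (10 genes in Lov-treated and Vhcl-treated tumors), and chance alone sets apart about 1 in 20.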

How the results depend on the processing

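The differences of Yap1, Wwtr1, Lats2, Amotl2, Cyr61 and Birc5 kept their sign under every alternative run, and Cyr61 stayed under an unadjusted p of 0.05 wherever the alternative gave a p. Probe sets dimmer than the second brightest entered the alternatives only through the mean of all. Taken singly, 1 of Wwtr1 (-0.05) and 2 of the 6 of Lats2 had a negative difference. The dimmer Cyr61 probe sets had unadjusted limma p of 0.182 and 0.079. The sign turned for Tead1 by its second brightest probe set (0.048), and, once the fit held the beta-actin 3' minus 5' signal (the beta-actin covariate), for Ankrd1 (0.0049), Ctgf (0.33) and Nuak2 (0.058). Ctgf ranged between -0.43 and 0.21 when 1 tumor was left out. The correlation of Ankrd1 with skeletal muscle markers was -0.70 without Lov A50 and Vhcl A59. The count of genes past an unadjusted p of 0.05 was 2 in place of 1 with a trended, robust prior (Birc5), with the ID prefix of the tumors in the fit (Birc5), with the beta-actin covariate (Amotl2, -0.28) and without Lov A19 and Vhcl AB11 together (Birc5, -0.74), and it was 1 to 2 when 1 tumor was left out. The count of positive differences was 6 in place of 3 with the beta-actin covariate, and 3 to 4 when 1 tumor was left out. The cause was not tested. The test without moderation of the variance, which the methods name for other 2-group data and not for the arrays, gave 2066 probe sets at an unadjusted p of 0.05 and 0 at an FDR of 0.05. An FDR of 0.05 was passed by 1 probe set without Vhcl A54, by 4 without Lov A19 and Vhcl AB11, and by 0 in the other settings. No paired analysis was possible because the labels give the tumors no shared replicate numbers. Dim signals (Ankrd1, the lesser probe sets of Lats2 and Tead1) limit what can be seen, and 5 tumors per group limit the size of change that passes a test over 45037 probe sets.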

Other observations

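Cell type markers other than those set beside a gene in the report were also counted. Of 8 tumor epithelium markers 0 passed an unadjusted p under 0.05 by limma (median difference -0.13), as did 0 of 5 myoepithelial markers (median 0.10) and 0 of 7 pericyte and smooth muscle markers (median -0.13). Of 9 skeletal muscle markers 0 passed (median -0.96), with scores of -0.81 to 1.30 in Lov-treated and -0.83 to 1.45 in Vhcl-treated tumors. Among 8 leukocyte markers, the T cell receptor subunit Cd3g (0.51) and the macrophage receptor Csf1r (0.43) were higher, and the monocyte receptor Cd14 (-1.38) and the integrin Itgam (-0.34) lower, at an unadjusted p under 0.05. Itgam was dim (3.33 to 4.15, below the median signal of 5.02). Cd3g lay near that median (4.97 to 5.46 with Lov, 4.37 to 5.24 with Vhcl), and Cd3e, also of that list, had a difference of 0.07. Of all probe sets, 5.28% passed that threshold. Of 4 measured adipocyte markers (6 listed), the fatty acid binding protein Fabp4 (-0.86) was lower at that threshold. Of 5 salivary gland markers 2 were lower, and their score was highest in Vhcl AB11 (2.01; exact permutation test of the score, 2-sided p = 0.0397). Wwtr1 and the 7 endothelial markers had r = -0.17 (permutation p = 0.67, adjusted p = 0.804; Spearman coefficient = -0.22, permutation p = 0.53, adjusted p = 0.636; r = -0.02 without Lov A50 and Vhcl A59).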
